A study of Piaractus mesopotamicus with 9 samples.

Results

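The 9 purine synthesis enzymes described here were ppat, gart, pfas, paics, adsl, atic, impdh1b, impdh2 and gmps, taken from the pacu (Piaractus mesopotamicus) myotube transcriptome by the gene name given to each assembled contig. They were 9 of the 19272 gene names in the count table and were carried by 38 contigs, of which 30 in all 9 genes had a mean raw count of at least 10 and were tested. Fast-twitch muscle cells of juvenile fish, 20 fish per culture, were grown to myotubes, which are the fused cells formed by differentiating myoblasts, and all groups entered an amino acid-free medium on day 8 for 12 h. The CTR group stayed in that medium, based on Earle's salts with vitamins and glucose, for 36 h in all, the AA group then received DMEM, a complete culture medium with amino acids, for 24 h, and the IGF1 group received the amino acid-free medium with recombinant sea bream insulin-like growth factor 1 at 100 ng/mL for 24 h. In the labels, the treatment field gives 12 h for AA and IGF1, whereas their protocol and the study's methods give the 24 h used here. Each group had 3 libraries, from a study with 3 independent cultures, and the labels do not tie a library to a culture, so the p-values measure the spread between these libraries. DMEM differs from the amino acid-free medium in other ingredients too, and their part and that of the amino acids cannot be told apart in AA compared to CTR.

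Cells build purines on a ribose phosphate donor, phosphoribosyl pyrophosphate (PRPP), using glutamine, glycine, aspartate and formyl groups carried by folate. The chain ends at inosine monophosphate (IMP), from which one branch leads to AMP and the other, through IMP dehydrogenase and GMP synthetase, to GMP. Purine synthesis supplies ATP and GTP as well as building blocks of RNA and DNA, and it is known to be stimulated by growth signaling in mammalian cells. The enzyme roles given below are those of the mammalian proteins.

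The libraries differed in depth, with 1366043 raw counts in AA replicate 3 and 53525876 in IGF1 replicate 3, a ratio of 39.2. AA replicate 3 stood apart, with 0 counts on 15.1% of the tested contigs and from 0 to 37 raw counts on the leading contigs of the 9 enzymes. Among the AA libraries it had the lowest value of 7 enzymes and the highest value of the other 2, gart and impdh1b. Several AA results are therefore also given without it, or as a range over fits with single libraries left out. It is in neither group of IGF1 compared to CTR. Leaving it out changes there only the spread estimated over all groups, the scaling and the contigs tested. An IGF1 result that passes only without it is therefore not a change in the libraries compared. Skeletal muscle markers were present in every library, with a summed level of 65.9 to 88.7 CPM (counts scaled to a common library size) over 10 markers in CTR, 188 to 304 in AA and 111 to 134 in IGF1, whereas mylpfb and actc1b did not reach the count minimum and 5 of the 17 listed were not among the names. Fibroblast markers summed to 10934 to 11776 CPM over 7 genes in CTR, 11256 to 12449 in AA and 16727 to 17252 in IGF1. This was mostly from collagen type I chains, and the sum was above that of the muscle markers in every library. Whether muscle cells, fibroblasts or both transcribed the 7 genes was not tested. Singly they moved both ways in AA compared to CTR, where postnb (log2 fold-change 2.53) and lum (0.50) rose and fap fell (−1.43). In IGF1 5 of the 7 rose and 0 fell, and in AA compared to IGF1 2 were higher and 4 lower. Endothelial markers (3 genes) summed to 16.2 to 33.6 CPM over all groups, but tek rose in IGF1 (log2 fold-change 1.52, edgeR adjusted p = 0.0457, kept in 4 of 9 fits with single libraries left out) and cdh5 was higher in AA than in IGF1 (1.52, adjusted p = 0.0120, kept in 7 of 9). In IGF1 compared to CTR cdh5 went the other way from tek. It did not pass there with all libraries but fell without AA replicate 3 (−1.10, edgeR adjusted p = 0.0148). The only leukocyte marker tested, ptprc, had 0 to 2.17 CPM, and none of 4 red blood cell markers reached the count minimum. These are bulk samples, in which fewer cells of a type and less RNA per cell cannot be told apart, and the part of cell composition in the results below was not tested.

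Values below are the authors' normalized counts, raw counts divided by a size factor per library, on the contig with the highest mean of each gene (the leading contig). Contig lengths were not used here, so these values compare libraries within a gene and not levels between genes. Tests were edgeR's quasi-likelihood test on raw counts with Benjamini-Hochberg adjustment over 35575 contigs, and a gene is said to have passed, risen or fallen at an adjusted p of 0.05 or less.

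impdh2 was the purine synthesis enzyme that rose in AA compared to CTR and also in IGF1 compared to CTR. Its edgeR fold-change was in each case slightly under 2-fold. atic fell in AA, pfas was lower in AA than in IGF1, and the other 6 enzymes passed in no comparison. In AA compared to CTR, 2 of the 9 leading contigs passed, beside 13.1% of the 13110 leading contigs of all gene names, 1 of them up-regulated (6.62% of all) and 1 down-regulated (6.49% of all). In IGF1 compared to CTR, 1 of 9 passed, beside 6.41% of all leading contigs, and it was up-regulated (3.1% of all). In AA compared to IGF1, 1 of 9 passed, beside 9.07%, and it was lower in AA by more than 2-fold (4.77% of all were lower, and 4.77% passed with a 2-fold minimum). These are small counts near the background. No leading contig of an enzyme both passed and reached the 2-fold minimum of the study against CTR, which 6.96% of all leading contigs reached in AA and 2.93% in IGF1. impdh2 was close to that minimum, which the study applied to DESeq2 values. With single libraries left out its log2 fold-change was 0.81 to 1.15 in AA and 0.86 to 1.20 in IGF1. At an unadjusted p under 0.05 there were 3 enzymes in AA, beside 26.8% of all leading contigs, and 3 in IGF1, beside 18.6%. The median log2 fold-change of the 9 enzymes was −0.08 in AA and 0.01 in IGF1, against 0.03 and 0.05 over the leading contigs of all names, and 4 of the 9 values were above 0 in AA and 5 in IGF1.

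**Figure D1:**
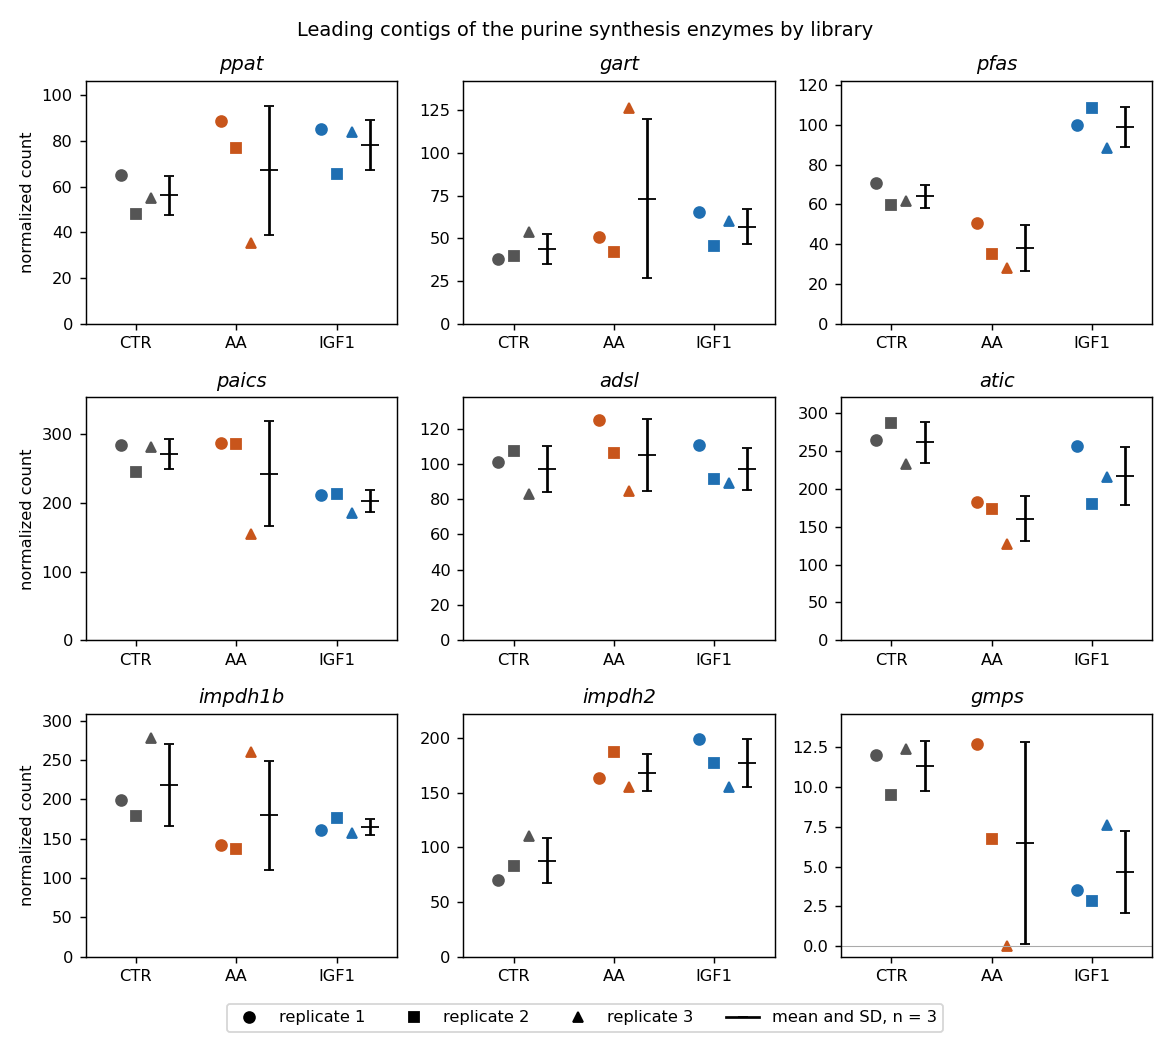
Normalized counts (vertical axis, from 0) of the leading contig of each of the 9 enzymes in the 3 libraries of CTR, AA and IGF1, with the marker shape giving the replicate number and the bar the mean and SD (n = 3). The impdh2 libraries of AA and IGF1 lie above all CTR libraries, the pfas libraries lie in 3 separate levels, and AA replicate 3 (triangle) lies apart from the other AA libraries for gart, impdh1b, ppat and paics.

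The pathway opens with ppat, amidophosphoribosyltransferase, which commits PRPP to purine synthesis by transferring an amide nitrogen from glutamine. Its normalized counts were 65.1, 48.2 and 55.2 in CTR replicates 1, 2 and 3, 88.9, 77.1 and 35.2 in AA, and 85.0, 65.6 and 83.9 in IGF1. The IGF1 libraries lay above the CTR libraries, the lowest of them only just. AA replicates 1 and 2 lay above the CTR libraries, and AA replicate 3, with 5 raw counts, lay below them. The log2 fold-change was 0.38 in AA (standard error 0.31, edgeR adjusted p = 0.492) and 0.51 in IGF1 (standard error 0.29, adjusted p = 0.390), and neither passed. With single libraries left out the value in AA was 0.22 to 0.55 and passed in no fit (edgeR adjusted p of 0.204 or more).

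gart joins glycine to the chain and adds its first formyl group as a protein with 3 enzyme activities, GAR synthetase, GAR formyltransferase and AIR synthetase. Its values were 37.8, 39.4 and 53.8 in CTR, 50.8, 41.9 and 126.5 in AA and 65.2, 45.6 and 60.0 in IGF1. AA replicate 3, with 18 raw counts, was more than all other libraries, and without it the log2 fold-change in AA went from 0.45 (edgeR adjusted p = 0.506) to 0.05 (adjusted p = 0.948). In IGF1 it was 0.41 (standard error 0.34, adjusted p = 0.618), with overlapping libraries.

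pfas, FGAM synthase, spends a second glutamine to turn the formylated intermediate into an amidine. The CTR libraries had 70.7, 59.9 and 61.9 normalized counts, the AA libraries 50.8, 35.2 and 28.1, and the IGF1 libraries 99.9, 108.3 and 88.5. All AA libraries were below and all IGF1 libraries above the CTR libraries, with no overlap between any 2 groups. Against CTR neither difference passed, with a log2 fold-change of −0.71 in AA (standard error 0.30, edgeR adjusted p = 0.145) and 0.61 in IGF1 (standard error 0.26, adjusted p = 0.221). With single libraries left out they were −0.93 to −0.58 and 0.56 to 0.69, and neither passed in any fit. The direct comparison of AA to IGF1 passed, at 38.03 ± 11.6 (SD, n = 3) against 98.9 ± 9.93 (SD, n = 3), a log2 fold-change of −1.32 (standard error 0.30, edgeR adjusted p = 0.0088) or 0.401-fold. Without AA replicate 3, which had 4 raw counts, it was −1.24 (adjusted p = 0.0118), and without AA replicate 2 it was −1.19 and no longer passed (adjusted p = 0.0660).

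paics is a bifunctional carboxylase and synthetase that brings in carbon dioxide and aspartate. It had 285.1, 246.0 and 281.8 normalized counts in CTR, 287.8, 286.7 and 154.7 in AA and 211.2, 213.7 and 185.2 in IGF1. The IGF1 libraries lay below all CTR libraries, and in AA only replicate 3 was below them. The log2 fold-change was −0.42 in IGF1 (standard error 0.19, edgeR adjusted p = 0.259) and −0.08 in AA (adjusted p = 0.846), where it turned to 0.09 without AA replicate 3. adsl, adenylosuccinate lyase, acts after paics and again in the AMP branch. Its values of 101.2, 107.3 and 82.7 in CTR, 124.9, 106.2 and 84.4 in AA and 110.5, 91.2 and 89.1 in IGF1 overlapped in all groups, with log2 fold-changes of 0.16 (edgeR adjusted p = 0.753) and 0.01 (adjusted p = 0.991). In AA adsl ranged from 0.04 to 0.24 with single libraries left out.

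atic adds the last formyl group, from formyl tetrahydrofolate, and closes the ring to IMP. Its normalized counts were 264.3, 287.6 and 232.7 in CTR, 182.0, 173.1 and 126.5 in AA and 256.5, 179.5 and 215.4 in IGF1. Every AA library was below every CTR library, with a mean of 161 ± 29.8 (SD, n = 3) against 262 ± 27.6 (SD, n = 3), while the IGF1 libraries overlapped with CTR. atic fell in AA by 0.65 on the log2 scale (standard error 0.20, edgeR adjusted p = 0.0385), which is 0.636-fold. This call was close to the threshold. Without AA replicate 3 the log2 fold-change was −0.56 (adjusted p = 0.0732), and the call was also lost without CTR replicate 1, 2 or 3, AA replicate 1 or 2, or IGF1 replicate 3, at values of −0.74 to −0.56. In IGF1 the log2 fold-change of atic was −0.24 (standard error 0.19, adjusted p = 0.573).

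IMP dehydrogenase, which oxidizes IMP on the way to GMP and is rate-limiting for guanine nucleotides, was represented by 2 genes. impdh2 had 69.9, 83.2 and 110.3 normalized counts in CTR, 163.0, 187.3 and 154.7 in AA, and 199.1, 176.7 and 155.5 in IGF1. All AA and all IGF1 libraries were above all CTR libraries. The CTR mean was 87.8 ± 20.6 (SD, n = 3) and the AA mean 168 ± 17.0 (SD, n = 3), which is 1.92-fold, or 0.94 on the log2 scale (standard error 0.23, edgeR adjusted p = 0.00921). In IGF1 it was 177 ± 21.8 (SD, n = 3), a log2 fold-change of 0.99 (standard error 0.22, edgeR adjusted p = 0.00731) or 1.99-fold. Both comparisons share the CTR libraries. The call in AA held without AA replicate 3 (0.99, adjusted p = 0.00759) and was lost without AA replicate 2 (0.82, adjusted p = 0.0730), and that in IGF1 was lost without IGF1 replicate 1 (0.88, adjusted p = 0.0611). AA and IGF1 differed by −0.05 (standard error 0.22, adjusted p = 0.936).

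impdh1b, the other IMP dehydrogenase gene, passed in neither comparison. It had 199.2, 179.6 and 278.0 normalized counts in CTR, 141.8, 137.3 and 260.1 in AA and 160.9, 176.7 and 156.9 in IGF1. The IGF1 libraries lay below the CTR libraries, and in AA replicates 1 and 2 did while replicate 3 did not. The log2 fold-change was −0.44 in AA (standard error 0.23, edgeR adjusted p = 0.256), −0.66 without AA replicate 3 (adjusted p = 0.0535), and −0.43 in IGF1 (standard error 0.22, adjusted p = 0.325).

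**Figure D2:**
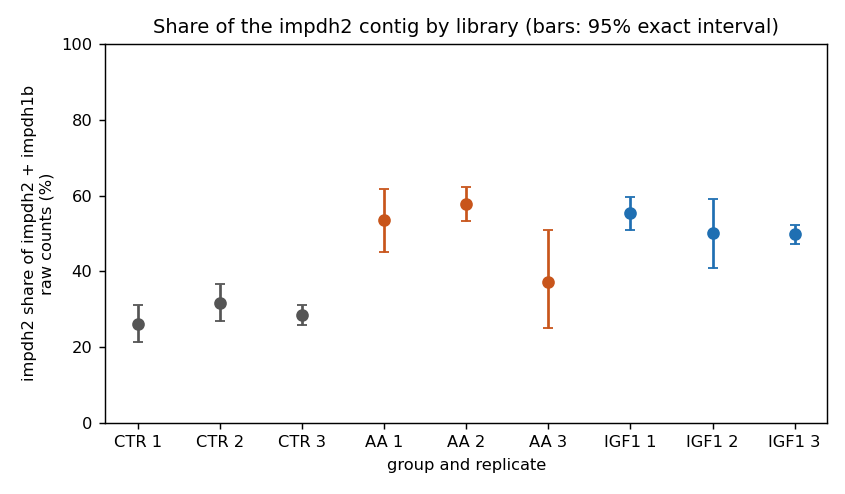
Share of the impdh2 leading contig in the raw counts of the impdh2 and impdh1b leading contigs together (vertical axis, percent) in each library, with 95% exact binomial intervals. The CTR libraries lie between 26.0% and 31.7%, the IGF1 libraries between 49.8% and 55.3%, and AA replicate 3 at 37.3% with the widest interval.

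The balance of both IMP dehydrogenase genes, a ratio within each library that needs no scaling between libraries, was looked at after their values were seen and is given as a description. impdh2 took 26.0% (95% exact binomial interval 21.4 to 31.0), 31.7% (26.9 to 36.7) and 28.4% (25.8 to 31.2) of their summed raw counts in CTR. In AA it took 53.5% (45.0 to 61.8), 57.7% (53.1 to 62.2) and 37.3% (25.04 to 50.9), the last from 22 of 59 counts in replicate 3. In IGF1 the shares were 55.3% (50.9 to 59.7), 50% (40.9 to 59.1) and 49.8% (47.3 to 52.3). The share was thus higher in every AA and IGF1 library than in every CTR library, with group means of 28.7% ± 2.86 in CTR, 49.5% ± 10.8 in AA and 51.7% ± 3.14 in IGF1 (SD, n = 3). The interval of AA replicate 3 overlapped those of all CTR libraries. The intervals cover counting error only and take each count as independent. The sequencing was paired-end, and the intervals are too narrow if both reads of a pair were counted. Contig length enters the share and the size of its differences but not which library is higher. How read pairs and reads matching both genes were counted is not given in the sources used here.

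gmps, GMP synthetase, takes the product of IMP dehydrogenase to GMP with nitrogen from glutamine. It was the least counted of the enzymes, with 12.0, 9.49 and 12.4 normalized counts in CTR, 12.7, 6.76 and 0 in AA and 3.54, 2.85 and 7.59 in IGF1. The IGF1 libraries lay below all CTR libraries. With counts taken as independent, the 0 of AA replicate 3 allows up to 3 raw counts. There this is 21.1 normalized counts, above every other value of the gene. The log2 fold-change was −0.55 in AA (standard error 0.70, edgeR adjusted p = 0.690) and −1.04 in IGF1 (standard error 0.63, adjusted p = 0.437), and neither passed. In AA gmps ranged from −1.01 to −0.33 with single libraries left out.

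**Figure D3:**
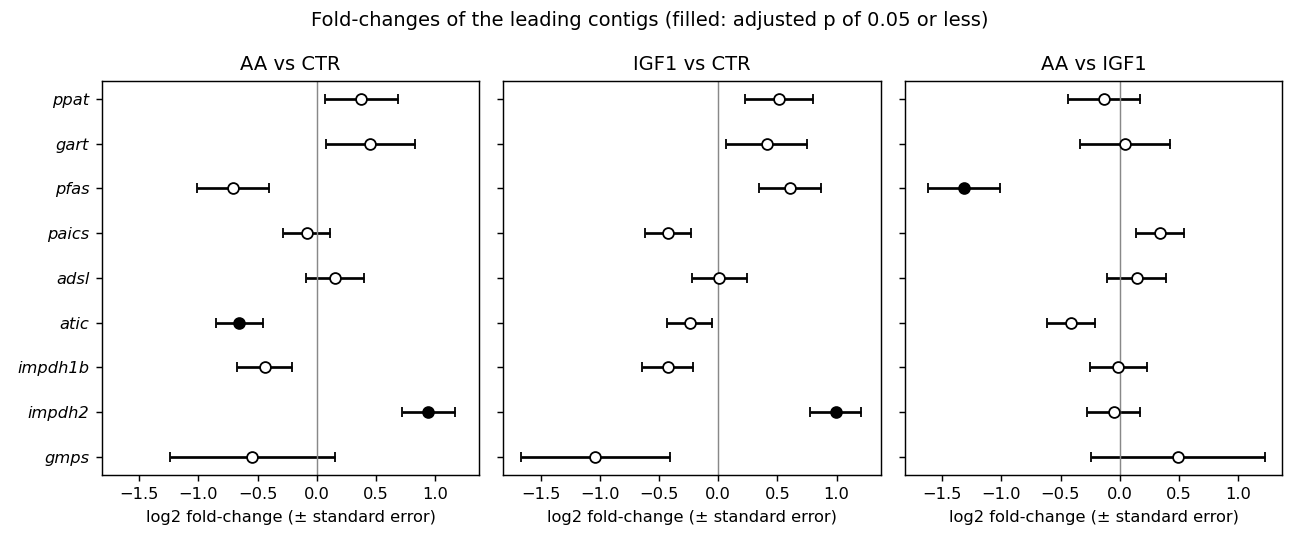
Log2 fold-change of each leading contig (horizontal axis) in AA compared to CTR, IGF1 compared to CTR and AA compared to IGF1, with bars of 1 standard error and filled points at an adjusted p of 0.05 or less. impdh2 at 0.94 and 0.99 and atic at −0.65 are filled against CTR, pfas at −1.32 is the filled point between the treatments, and gmps has the widest bars.

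Counted by library, 1 enzyme lay above CTR in all AA libraries (impdh2) and 2 lay below (atic and pfas), beside 16.6% and 16.0% of all leading contigs. For IGF1, 3 lay above (impdh2, pfas and ppat) and 3 below (paics, impdh1b and gmps), beside 16.4% and 13.8%. Between the treatments pfas alone did not overlap, lower in AA, beside 14.4%. Across the enzymes the direct comparison of AA to IGF1 gave log2 fold-changes of −0.41 for atic (edgeR adjusted p = 0.255) and 0.34 for paics (adjusted p = 0.371), and of −0.13 to 0.49 for the 6 enzymes other than these and pfas.

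Most genes had more than 1 contig, and contigs of a name are isoforms, fragments or paralogs that may share reads, so they are not replicates. Of the 30 tested contigs, 4 passed in AA, beside 11.9% of all contigs, with 2 of impdh2 upward (5.29% of all) and 2 of atic downward (6.6% of all). In IGF1 2 passed, both of impdh2 and upward, beside 2.5% of all contigs, and in AA compared to IGF1 2 passed, both of pfas and lower in AA, beside 4.51%. The second passing impdh2 contig had 1.02 in IGF1 (edgeR adjusted p = 0.0115), just past 2-fold, and the third had log2 fold-changes of 0.70 in AA (edgeR adjusted p = 0.114) and 0.89 in IGF1 (adjusted p = 0.0529). The other atic contigs in AA had −0.76 (adjusted p = 0.0853) and −0.55 (adjusted p = 0.0761). Within a gene the contigs mostly had the sign of the leading contig. The exceptions against CTR were in adsl, with a contig at −0.35 in AA and contigs at −0.28 and −0.21 in IGF1, and in paics, with contigs at 0.02 and 0.87 in AA, none of which passed. In AA compared to IGF1 they were a gart contig at −0.14, an adsl contig at −0.06 and paics contigs at −1.43, −0.90 and −0.02, and none of these passed. A low-count adsl contig had the largest value, 2.005 in AA (adjusted p = 0.0873) and 1.29 in IGF1 (adjusted p = 0.390).

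**Figure D4:**
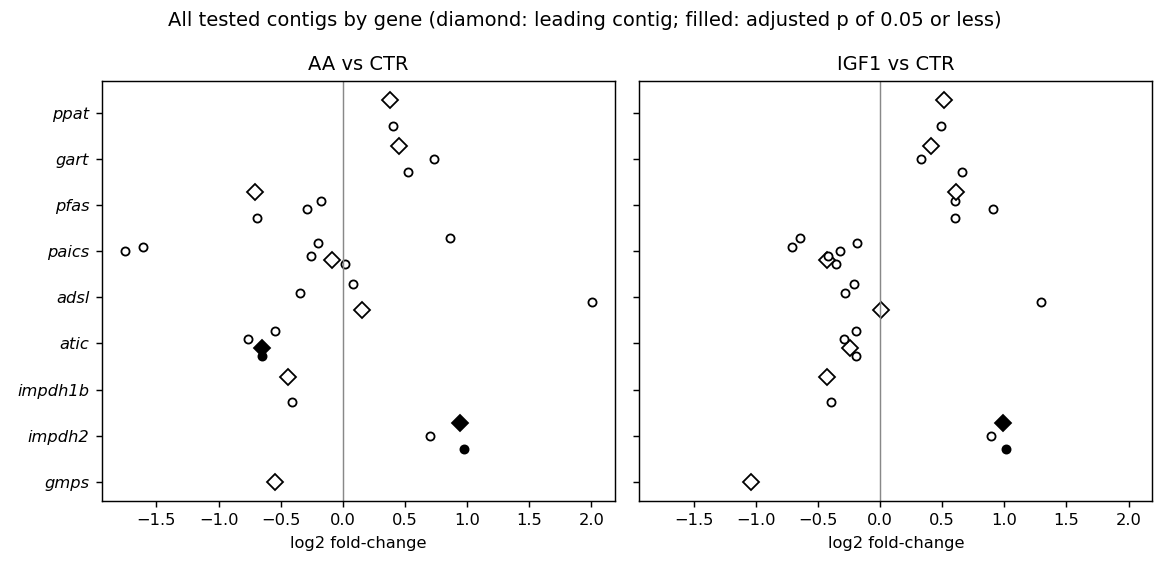
Log2 fold-change (horizontal axis) of all 30 tested contigs by gene in AA and IGF1 compared to CTR, with diamonds for leading contigs and filled symbols at an adjusted p of 0.05 or less. All 3 impdh2 contigs lie at 0.70 or above in both comparisons and all 4 atic contigs at −0.55 or below in AA, whereas paics and adsl contigs lie on both sides of 0 in AA.

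The steps beside these enzymes were described with lists of genes. In the AMP branch adenylosuccinate synthase joins aspartate to IMP, and its gene adssl had 151.8, 112.4 and 130.1 normalized counts in CTR, 188.4, 193.4 and 281.2 in AA and 236.7, 171.0 and 197.0 in IGF1. All treated libraries were above all CTR libraries. adssl rose in AA, with a log2 fold-change of 0.67 (standard error 0.21, edgeR adjusted p = 0.0445), a call kept only without CTR replicate 1, IGF1 replicate 1 or IGF1 replicate 2 when single libraries were left out, and 0.55 without AA replicate 3 (adjusted p = 0.0950). It had 0.64 in IGF1 (standard error 0.20, adjusted p = 0.0677). Without AA replicate 3 the log2 fold-change there was still 0.64 and passed (edgeR adjusted p = 0.0363). The second such gene, adss, was near the count minimum, at 0.99 in AA (adjusted p = 0.442) and 0.42 in IGF1 (adjusted p = 0.842). PRPP synthetases and their associated proteins, which supply the ribose phosphate, passed against CTR in none of 4 tested genes. The nearest in AA were prps1b at −0.54 (edgeR adjusted p = 0.106), prpsap1 at −0.41 (adjusted p = 0.160) and prps1a at −0.54 (adjusted p = 0.375), and in IGF1 prps1a at −0.73 (adjusted p = 0.258). prpsap1 had −0.20 (adjusted p = 0.631) and prps1b 0.22 (adjusted p = 0.649) there. prps1b was lower in AA than in IGF1, at −0.75 (adjusted p = 0.0312), a call kept in 5 of 9 fits with single libraries left out and lost without AA replicate 3 (−0.68, adjusted p = 0.0571).

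Salvage enzymes return bases and nucleosides to nucleotides. Of 5 tested, 1 rose in AA, dck, deoxycytidine kinase, from 2.55 ± 1.69 to 19.0 ± 4.25 normalized counts (SD, n = 3), a log2 fold-change of 3.10 (standard error 0.72, edgeR adjusted p = 0.00733) that rested on 2 to 32 raw counts per AA library and was lost without CTR replicate 3 (2.50, adjusted p = 0.0626). In IGF1 none passed, with dck at 2.09 (adjusted p = 0.0939). adka, adenosine kinase, had −0.56 in AA (adjusted p = 0.132), dguok, deoxyguanosine kinase, 0.63 in IGF1 (adjusted p = 0.400), and hprt1, which salvages hypoxanthine and guanine, 0.15 and 0.28 (adjusted p = 0.801 and 0.659). Among 14 genes that interconvert purine nucleotides, 1 fell in AA and none passed in IGF1. This was ampd2b, an AMP deaminase that returns AMP to IMP, at 36.6 ± 3.19 in CTR and 7.56 ± 7.14 in AA (SD, n = 3), a log2 fold-change of −1.78 (standard error 0.54, edgeR adjusted p = 0.0379), and in IGF1 it had −1.08 (adjusted p = 0.235). Its call rested on 0 to 21 raw counts per AA library, with 0 in AA replicate 3, and was kept only without AA replicate 3, IGF1 replicate 1 or IGF1 replicate 2 when single libraries were left out. The kinase gene ak3 had 0.78 in AA (adjusted p = 0.0649) and 0.71 in IGF1 (adjusted p = 0.116), and ak5l had −0.72 in IGF1 (adjusted p = 0.254).

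Of 9 tested genes of purine breakdown, 1 rose in AA and none passed in IGF1. nt5e, the surface nucleotidase that turns AMP into adenosine, had 281.1, 182.5 and 197.0 normalized counts in CTR, 582.0, 485.6 and 555.4 in AA and 177.9, 153.9 and 146.3 in IGF1. All AA libraries were above and all IGF1 libraries below the CTR libraries. Its log2 fold-change was 1.28 in AA (standard error 0.18, edgeR adjusted p = 0.000126) and −0.46 in IGF1 (adjusted p = 0.182), and it was 1.74 higher in AA than in IGF1 (standard error 0.19, adjusted p = 7.96e-06). ada, adenosine deaminase, had 1.26 in AA (adjusted p = 0.11), and pnp5b, a purine nucleoside phosphorylase, had −0.62 (adjusted p = 0.113). pnp5b was lower in AA than in IGF1, at −0.85, a call kept in 4 of 9 fits with single libraries left out. It was lost without AA replicate 3 (−0.77, edgeR adjusted p = 0.0845). In IGF1 pnp5a had 1.30 (adjusted p = 0.158) and ada2a −0.72 (adjusted p = 0.404).

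One-carbon enzymes provide the formyl groups used by gart and atic. Of 8 tested, 3 mitochondrial serine and folate enzymes rose in IGF1, shmt2, mthfd1l and mthfd2, at log2 fold-changes of 1.18 (edgeR adjusted p = 6.63e-05), 1.14 (adjusted p = 0.000555) and 0.80 (adjusted p = 0.000597). None of these passed in AA, where they had 0.45 (adjusted p = 0.0654), −0.25 (adjusted p = 0.478) and −0.14 (adjusted p = 0.591), and all 3 were lower in AA than in IGF1 in the direct comparison. aldh1l2, also a mitochondrial folate enzyme, passed in neither AA nor IGF1. In AA the cytosolic shmt1 rose, at 2.31 (standard error 0.52, adjusted p = 0.00590), from 8.27 ± 3.52 to 45.9 ± 22.7 normalized counts (SD, n = 3), and mthfs, which recycles a folate storage form, fell, at −1.46 (standard error 0.43, adjusted p = 0.0326). Both kept their calls without AA replicate 3, where mthfs had 0 counts, and mthfs lost its call without any 1 of the CTR libraries or AA replicate 1 (adjusted p up to 0.114). In IGF1 shmt1 did not pass, at 27.6, 14.2 and 28.4 normalized counts against 11.2, 4.38 and 9.19 in CTR. Without AA replicate 3 it passed there, at 1.59 (edgeR adjusted p = 0.0396). AA then differed from IGF1 by 0.48 (adjusted p = 0.631). The pyrimidine synthesis list also held the salvage kinases uck1 and uck2b and cmpk, a pyrimidine nucleotide kinase. Of its 7 tested genes none passed in AA or IGF1 with all libraries. Nearest was cmpk, at 0.63 (edgeR adjusted p = 0.0627) and 0.67 (adjusted p = 0.0582). Without AA replicate 3 cmpk passed in IGF1 (0.67, edgeR adjusted p = 0.0279) but not in AA (0.45, adjusted p = 0.165). The nearest in AA was then ctps1b (−1.18, adjusted p = 0.0620). The uridine-cytidine kinase uck2b had 1.04 in AA (adjusted p = 0.0871) and 0.62 in IGF1 (adjusted p = 0.420), uck1 had −0.56 in AA (adjusted p = 0.222) and ctps1b −0.60 in IGF1 (adjusted p = 0.502).

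Genes of proliferation, given beside the purine genes since dividing cells use purines for DNA, were up-regulated in 15 of 16 tested in AA, their median being 2.38 on the log2 scale, and in 2 of 16 in IGF1, with a median of 0.88. In AA plk1, a mitotic kinase, had 4.33 (edgeR adjusted p = 5.74e-05), top2a, a DNA topoisomerase, 3.50 (adjusted p = 6.51e-05) and cdk1 2.66 (adjusted p = 7.97e-05). With single libraries left out, the AA calls of mcm2 and tyms were kept in 6 of 9 fits, that of pcna in 8 and the others in all 9. In IGF1 rrm2, a ribonucleotide reductase subunit, had 1.05 (edgeR adjusted p = 0.0292) and top2a 1.63 (adjusted p = 0.0456). These 2 calls were kept in 4 and 3 of 9 such fits. mcm7 had −0.79 in IGF1 (edgeR adjusted p = 0.0629). Without AA replicate 3 mcm7 fell there (−0.79, edgeR adjusted p = 0.0174). With single libraries left out from 0 to 3 of the 16 rose in IGF1. Their summed level was 44.2 to 53.6 CPM in CTR, 141 to 168 in AA and 54.9 to 79.1 in IGF1. Beside this, the purine synthesis enzymes had a median of −0.08 in AA. The part of proliferation and of the muscle and fibroblast markers in their values was not tested.

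**Figure D5:**
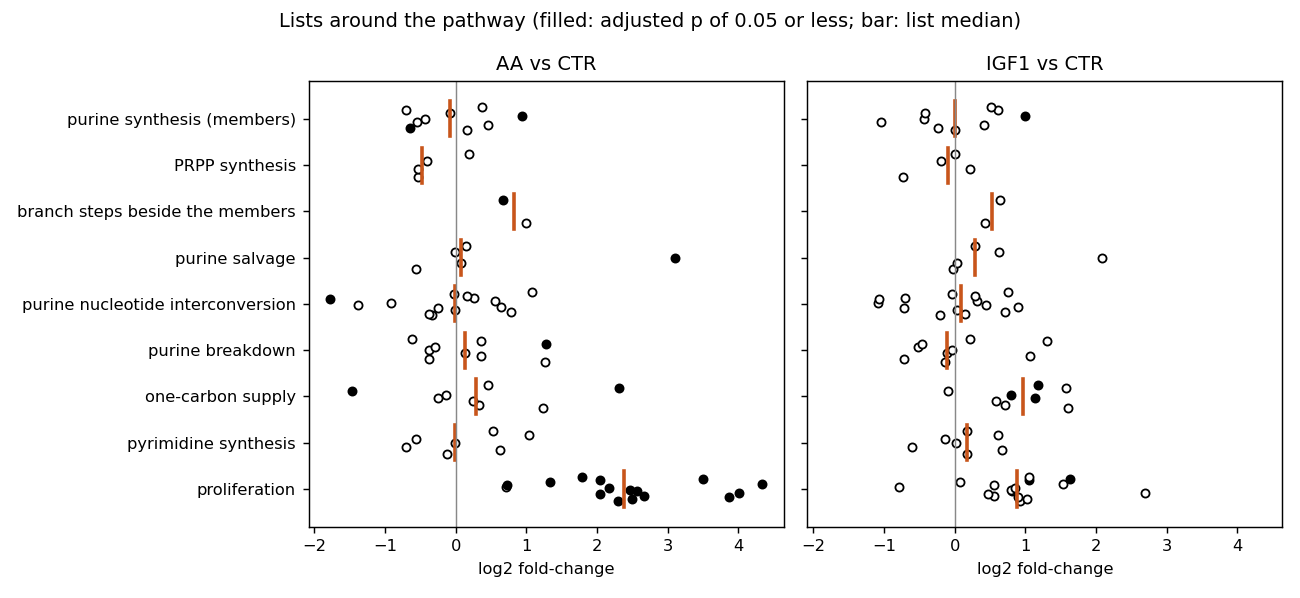
Log2 fold-change (horizontal axis) of the leading contig of each tested gene in the purine synthesis enzymes and 8 lists around them, in AA and IGF1 compared to CTR, with a bar at each median and points filled where the adjusted p was 0.05 or less. The proliferation list lies at a median of 2.38 in AA and 0.88 in IGF1, the one-carbon list at 0.97 in IGF1, and the purine synthesis enzymes near 0 in both.

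The mean pattern of the 9 enzymes over the libraries was nearly flat, with an SD of 0.12 on the scale of log2(CPM + 1). The names with the smallest root mean square difference from it, over 9 libraries and 11963 names, were rab7b (0.054), rps19 (0.056), rplp1 (0.059), rpl37a (0.068) and rpl5a (0.069), a small GTPase and 4 ribosomal proteins. Their mean normalized counts were 659 to 7816, against at most 239 for an enzyme. Opposite directions cancel in the mean of the enzymes, and steady, highly counted genes lie near such a flat pattern. Nearness to it therefore says nothing of shared regulation. The patterns of the genes that passed were compared in the same way after their values were seen. Nearest to impdh2 (SD 0.46) were cntfr (0.135), cox6b1 (0.147) and limch1a (0.160), nearest to pfas (SD 0.53) were tnfsf13 (0.118), farsb (0.134) and cebpa (0.135), and nearest to atic (SD 0.35) were zc3h18 (0.083), kpnb3 (0.094) and ndufb6 (0.10). All points share their libraries and depth, and the likeness is a description.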

How the data were processed

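Messenger RNA was measured in 9 libraries of pacu myotubes (3 CTR, 3 AA and 3 IGF1), from a stranded poly(A) protocol. The authors checked and trimmed the reads (FastQC 0.11.8, Trimmomatic) and made contigs with Trinity. BLASTx searches of 3 fish proteomes named the contigs, and Bowtie2 mapped each library to them. The counting tool is not given in the sources used here. The deposited raw counts are whole numbers per contig without normalization, on 69932 contigs. The signal values are, as deposited by the authors, those counts over DESeq2 size factors on 35575 contigs, all those whose raw counts averaged 10 or more, and multiplied back they differed from the raw counts by at most 0.00022. Contigs carry no genome positions.

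The test was that of edgeR 4.0.16, run in R 4.3.3 on raw counts (TMM factors, quasi-likelihood F test with the earlier deviance method, group as the only term, all 9 libraries), adjusted over 35575 contigs. The standard error of a log2 fold-change was its size divided by the root of F. CPM uses the TMM library sizes. The fit was run on simulated counts drawn from its own dispersion estimates. The 200 contigs changed there were above the median level, with changes larger than that of any enzyme's leading contig. That run says nothing of low-count contigs or smaller changes. Same-numbered libraries had residual correlations of 0.021 to 0.175 over 9 pairs, 1 above 0.1. The labels do not say whether they share a culture. The main fit did not treat them as pairs, and the replicate block was run as an alternative.

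The enzymes and lists were chosen with earlier results of these data known. All 9 enzymes are named by their leading contig, and other contigs singly where their direction differs. Of each list around the pathway, the genes with the 3 smallest adjusted p against CTR are named, with the adenylosuccinate synthases; some contigs, lists' genes and marker genes were named after their values were seen. 1 gene that this rule selects in the interconversion list is not reported here. The lists covered PRPP synthesis, branch steps, salvage, interconversion, breakdown, one-carbon supply, pyrimidine synthesis and proliferation, and cell type markers. Adipocyte markers passed in 1 of 3 in AA and 0 of 3 in IGF1, and the 1 tested epidermis marker, krt4, fell in AA. Alternatives were DESeq2 1.42.0, median-of-ratios factors, library size only, no filter, filterByExpr, only the groups compared, the replicate block, counts summed per name, limma 3.58.1 on log2(normalized count + 1), thinning to the shallowest library (5 draws), a 2-fold minimum and each library left out. edgeR's newer method, thinning without AA replicate 3, and leaving libraries out for the lists were added after seeing the data.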

Additional observations from a re-analysis of the deposited data

How the results depend on the processing

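The number of enzymes that passed in AA, 2, was 1 with library size only, with only the 2 groups compared, thinned to the shallowest library and thinned without AA replicate 3, 0 with a 2-fold minimum, and 0 to 2 with single libraries left out. When thinned to the shallowest library, the 1 left was atic. In the other settings named with 1, it was impdh2. Of the 4 passing contigs in AA, 2 were left with library size only, with only the 2 groups compared and thinned without AA replicate 3, 1 when thinned to the shallowest, and 0 to 4 with single libraries left out. The median in AA, −0.08, was 0.059 with library size only, −0.19 with counts summed per name, −0.21 with limma, 0.052 thinned, 0.068 thinned without AA replicate 3, and −0.22 to 0.049 with single libraries left out. In IGF1 the 1 enzyme and 2 contigs became 0 and 0 when thinned, the enzyme count was 0 with a 2-fold minimum, and single libraries left out gave 0 to 1 and 0 to 3. The median in IGF1, 0.01, was −0.13 with counts summed per name and −0.11 to 0.088 with single libraries left out. In AA compared to IGF1 the 1 enzyme and 2 contigs became 0 and 0 when thinned, the contigs 1 when thinned without AA replicate 3, and 0 to 1 and 0 to 3 with single libraries left out. Its median, −0.01, was 0.17 with library size only and −0.058 to 0.15 with single libraries left out. With the replicate block, 2, 1 and 1 enzymes passed in AA, IGF1 and AA compared to IGF1, as without it, and no call changed. In 16 of 18 cases a library's residuals correlated best with the same number, a hint from the data only.

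These directions turned, in values none of which had passed. paics in AA was 0.059 with library size only and 0.0081 thinned without AA replicate 3 (−0.22 to 0.086 with single libraries left out), and gmps in AA was 0.28 thinned without AA replicate 3. adsl in IGF1 was −0.019 with library size only, −0.13 summed per name and −0.00014 with limma (−0.11 to 0.088 with single libraries left out). In AA compared to IGF1, gart was −0.015 with no filter, −0.21 with edgeR's newer method and −0.21 thinned without AA replicate 3 (−0.36 to 0.38 with single libraries left out). ppat was 0.032 with library size only and 0.10 thinned without AA replicate 3 (−0.29 to 0.040), and adsl −0.037 in the latter. impdh1b was 0.025 with DESeq2, 0.0054 with median-of-ratios factors, 0.17 with library size only, 0.020 with only the 2 groups compared, 0.031 with the replicate block, 0.027 summed per name, 0.061 with limma and 0.25 thinned (−0.22 to 0.15). impdh2 was 0.12 with library size only and 0.15 thinned (−0.18 to 0.057), and gmps −0.17 with limma. The cause was not tested.

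impdh2 kept its direction in every alternative run, at 0.81 to 1.15 in AA and 0.83 to 1.20 in IGF1. It passed in neither when thinned to 1366043 counts (edgeR adjusted p = 0.136 and 0.347), while atic kept its call in AA there. The cause was not tested. The atic call was also lost with library size only (adjusted p = 0.119), which moved the median of all contigs in AA from −0.02 to 0.12, with only the 2 groups compared (adjusted p = 0.0501) and thinned without AA replicate 3 (adjusted p = 0.193). pfas in AA compared to IGF1 kept its direction, at −1.61 to −1.15, with an adjusted p of 0.0867 when thinned. DESeq2 gave no adjusted p for gmps. Among the lists' calls against CTR other than proliferation and cell type markers, the nt5e, shmt1, shmt2, mthfd1l and mthfd2 calls held with each library left out. dck was kept in 7 of 8 such fits, mthfs in 5 of 9 and adssl and ampd2b in 3 of 9 each.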
